A study of Mus musculus with 37 samples.

Results

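Goblet cells line the intestine and secrete the mucus that covers it. The gel is built from the mucin Muc2, to which other secreted proteins are added, and the cells assemble, fold and store these proteins in the endoplasmic reticulum and in granules before release. Vasoactive intestinal peptide (VIP), a neuropeptide of the enteric nervous system, acts on the epithelium through receptors that raise cyclic AMP. Described here are 10 genes for goblet cell mucus products, of 31533 gene symbols in the tables. They comprise the gel protein Muc2, its partners and processors Fcgbp, Clca1 and Zg16, the secreted peptides Tff3 and Spink4, the folding enzyme Agr2, and Bcas1, Rep15 and Tpsg1. All 10 had a row in each of the 3 count tables. They are goblet cell genes chosen by measured values of these data, the VIP changes in whole organoids and in Lgr5 cells after 72 h and the difference between these, so those values are a description, any count of calls among them stands beside the share of all genes and nothing is read from it, while the effects of irradiation, and of VIP in a second set of Lgr5 cells, were tested.

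RNA was sequenced from organoids, small epithelial cultures grown from jejunal crypts of female and male adult mice aged 6 to 12 weeks, in a medium with EGF, Noggin and R-spondin that all groups shared. Whole organoids came from C57Bl6/J mice and were left untreated (3 mice) or given 100 nM VIP for 72 h (4 mice, of which 1 had no untreated partner). The other cultures came from Lgr5-EGFP-IRES-CreERT2 mice, in which EGFP and CreERT2 are driven from the locus of the stem cell gene Lgr5, and Lgr5-EGFP+ cells were sorted from them (Lgr5 cells in what follows). This reporter is known to be silent in part of the stem cells. Each mouse gave 1 organoid line, so the replicates are lines of separate mice. With the mouse as a block in the fits, p-values rest on the spread left after mouse and treatment. The fit moderates that spread with information from other genes. In the irradiation cohort the spread is also shared over the 4 groups. It can therefore be smaller or larger than the spread of a single change from mouse to mouse. One experiment compared untreated cells with cells after 100 nM VIP for 72 h (4 mice each), and another, called the irradiation cohort here, compared no irradiation with 6 Gy, each without VIP and with 100 nM VIP for 48 h (4 mice in each of the 4 groups). The labels give a mouse number, and samples of a mouse were compared with each other. A sample held 3722716 to 6330404 molecules counted by unique molecular identifiers (UMIs) in whole organoids, 575242 to 1104126 in Lgr5 cells of the 72 h experiment and 1075715 to 1876729 in the irradiation cohort. Levels are given as CPM, the UMIs of a gene per 1000000 UMIs of its sample, and changes as log2 fold changes with their standard error (SE). Each molecule was tagged once at its 3′ end, so the counts were not divided by gene length. In bulk samples such as these, fewer goblet cells and less RNA per goblet cell cannot be told apart.

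The sorted cells carried goblet cell genes too, though Clca1, Muc2 and Zg16 stood well below their level in whole organoids (values below). Olfm4, which marks crypt base stem cells, had a median of 4145 CPM in untreated Lgr5 cells of the 72 h experiment and 2941 CPM in unirradiated untreated cells of the irradiation cohort, against 1639 CPM in untreated whole organoids. Lgr5 itself was not higher in the sorted cells, with 13.2 to 50.6 CPM and 12.2 to 28.3 CPM in these groups and 42.4 to 102 CPM in whole organoids. Summed markers of enterocytes, the absorptive cells, were at 827 to 2019 CPM in the untreated sorted cells at 72 h and 13738 to 14347 CPM in untreated whole organoids, and summed Paneth cell markers at 4858 to 14086 and 11966 to 21079.5 CPM. Of 8 markers of cells that are not epithelial, the summed level was 5.58 to 20.9 CPM in all samples, and Ptprc, the pan-leukocyte gene, was at 0 in every Lgr5 sample of the 72 h experiment.

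The 10 genes are spread over 7 chromosomes in GRCm38 (positions from GENCODE M21). Muc2 lies at chr7:141690340-141754693 on the plus strand, Fcgbp at chr7:28071236-28120862 plus, Zg16 at chr7:127050156-127087328 minus, Clca1 at chr3:145003817-145032776 minus and Agr2 at chr12:35992907-36004087 plus. Tff3 lies at chr17:31125306-31129646 minus and Tpsg1 at chr17:25369273-25374442 plus, Spink4 at chr4:40920052-40931395 plus, Bcas1 at chr2:170346991-170427845 minus and Rep15 at chr6:147032584-147034245 plus. RefSeq promoter sequence (GRCm38.p6) was matched for 4 of the 10, Fcgbp, Muc2, Agr2 and Tpsg1. The 250 bases before the annotated start are shown for Fcgbp, which VIP moved in opposite directions in whole organoids and sorted cells, for Muc2, the gel protein, which was low in sorted cells, and for Agr2, which was not low there.
Fcgbp, chr7:28070986-28071235, plus strand: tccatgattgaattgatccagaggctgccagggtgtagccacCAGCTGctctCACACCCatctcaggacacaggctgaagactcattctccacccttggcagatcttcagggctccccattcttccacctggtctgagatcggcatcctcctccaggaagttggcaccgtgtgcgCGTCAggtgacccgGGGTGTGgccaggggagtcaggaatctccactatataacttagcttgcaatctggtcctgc
Muc2, chr7:141690090-141690339, plus strand: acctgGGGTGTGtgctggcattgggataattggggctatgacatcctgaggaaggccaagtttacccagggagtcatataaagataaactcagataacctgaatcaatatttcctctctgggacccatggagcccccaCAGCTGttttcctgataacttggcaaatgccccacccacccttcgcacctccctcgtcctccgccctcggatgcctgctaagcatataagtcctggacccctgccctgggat
Agr2, chr12:35992675-35992924, plus strand: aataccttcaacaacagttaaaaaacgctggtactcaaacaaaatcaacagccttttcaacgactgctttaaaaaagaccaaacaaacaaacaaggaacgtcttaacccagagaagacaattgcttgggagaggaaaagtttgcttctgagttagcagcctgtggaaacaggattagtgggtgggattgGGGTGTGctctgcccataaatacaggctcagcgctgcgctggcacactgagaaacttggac
Capitals mark matches, on either strand, to the E-box CAGCTG, to GGGTGTG (a core read by KLF factors) and to TGACG (the core of the cyclic AMP response element). GGGTGTG was matched in all 3, at 2 places in Fcgbp and 1 each in Muc2 and Agr2, and in 6.93% of 32851 RefSeq promoters of the same length. CAGCTG was matched in Fcgbp and Muc2 but not in Agr2, and in 13% of all promoters. TGACG was matched in Fcgbp alone, on the minus strand, and in 17.8% of all promoters, while the full element TGACGTCA (1.55% of promoters) was in none of the 3. Neither Tpsg1 entry held any of these motifs. The SPDEF core ACCGGAAG, named for the ETS factor that drives goblet cell maturation, was in none of the 5 entries and in 1.72% of all promoters. In all, 9 motifs were searched. The ETS core GGAAG was in Fcgbp and Muc2 and in 64.1% of all promoters. The CDX2 core TTTATG was in Agr2 and in 10.8% of all promoters. The cores searched for FOXA and HNF4 factors were in none of the 5 entries. Such matches describe letters only and do not show binding.

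Members differed by orders of magnitude in level, and also in how sorted cells compared with whole organoids. Spink4, a Kazal-type protease inhibitor, was the most abundant, at 3516 ± 664 CPM (SD, n = 3) in untreated whole organoids, followed by the trefoil peptide Tff3 at 1378 ± 101 CPM and by Agr2, the disulfide isomerase of the endoplasmic reticulum that Muc2 needs, at 516 ± 153 CPM. These 3 genes made up 82.8 to 98.3% of the members' summed UMIs in every sample, so the summed level mostly tracks them. Fcgbp, a large protein of the mucus gel that binds Muc2, stood at 213 ± 111 CPM, the lectin-like Zg16 at 135 ± 16.9, Muc2 at 95.8 ± 48.5 and the metalloprotease Clca1, which cleaves Muc2, at 51.8 ± 4.02 CPM. The untreated cultures of whole organoids spread widely for Muc2 and Fcgbp, where mouse 3 had 47.0 and 87.3 CPM, below the other 2 mice for each. Tpsg1, a membrane-anchored tryptase, Rep15, an effector of the small GTPase Rab15, and Bcas1 were low, at 16.8 ± 1.24, 13.9 ± 3.99 and 5.78 ± 1.35 CPM.

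In untreated Lgr5 cells of the 72 h experiment, Zg16 stood at 21.9, 34.7, 19.7 and 77.9 CPM in mice 1 to 4 and Muc2 at 21.9, 33.5, 23.0 and 31.8 CPM, that is 0.286 and 0.288 times the mean of whole organoids. For both genes every sorted sample lay below every whole organoid sample. Clca1 had only 4 UMIs in all 4 untreated samples together, or 1.48 CPM pooled with an exact 95% Poisson interval of 0.404 to 3.80 that covers counting error only, against 738 UMIs and 51.3 CPM (47.6 to 55.1) in untreated whole organoids. Spink4, Tff3, Tpsg1 and Agr2 stayed at 1.02, 1.14, 1.19 and 1.35 times the level of whole organoids, with overlapping samples. The irradiation cohort, sorted from other cultures, gave a like order for most genes without radiation, with Clca1 at 0.0989, Muc2 at 0.241, Zg16 at 0.399 and Agr2 at 1.52 times, but Fcgbp at 0.267 where the 72 h experiment had 0.665. Mouse line, sort and experiment differ together between whole organoids and sorted cells and cannot be told apart, so these ratios carry no test.

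**Figure D1:**
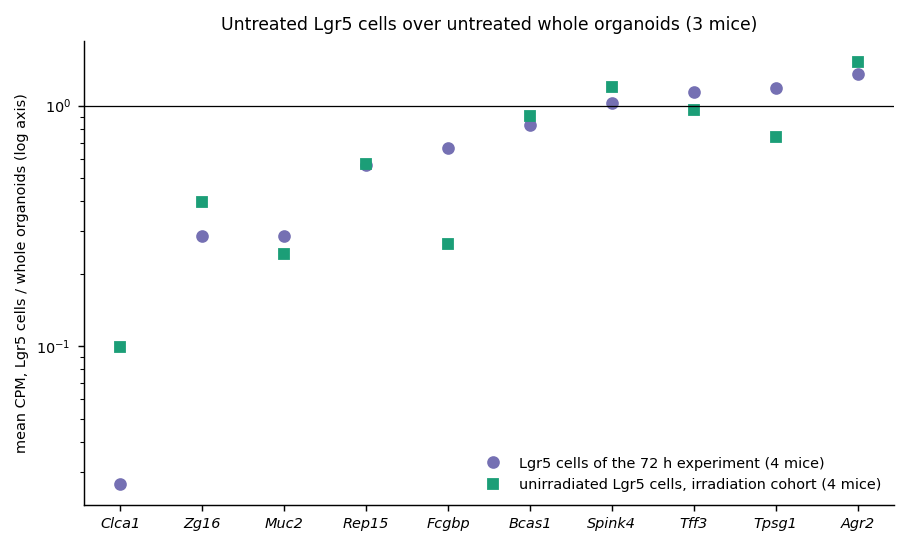
Mean CPM of each member in untreated sorted Lgr5 cells divided by its mean in untreated whole organoids, on a log axis, for the 72 h experiment (circles) and the unirradiated samples of the irradiation cohort (squares). Clca1 sits lowest in both and Agr2 highest in both, and the line marks equal levels.

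In whole organoids, every member was higher with VIP. Clca1 went from 47.1, 53.9 and 54.3 CPM in untreated mice 1 to 3 to 197, 241, 219.6 and 179 CPM in VIP-treated mice 1 to 4. The groups stand far apart, and the fitted log2 fold change was 2.08 (SE 0.10), the largest of the 10. Zg16 went from 118, 134 and 152 to 408, 458, 424 and 363 CPM, a log2 fold change of 1.67 (SE 0.10), and again no treated sample reached down to the untreated ones. Bcas1 went from 6.93, 6.12 and 4.30 to 13.8, 10.5, 16.9 and 14.2 CPM, or 1.19 (SE 0.23) on the log2 scale. Its UMIs were few, 40, 30 and 16 in the untreated samples.

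Tff3 and Tpsg1 were the other members whose groups did not overlap, with smaller changes. Tff3 had 1269.5, 1395 and 1470.2 CPM untreated and 1941, 1978, 2033 and 2064 CPM with VIP (0.52, SE 0.09). Tpsg1 had 15.8, 18.2 and 16.4 CPM untreated and 22.2, 29.4, 24.8 and 29.2 CPM with VIP (0.59, SE 0.14). For the remaining members the mice overlapped between groups, yet each treated culture that had an untreated partner lay above that partner.

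Muc2 stood at 96.3, 144 and 47.0 CPM in untreated mice 1 to 3 and 149, 176, 107 and 149 CPM in VIP-treated mice 1 to 4, with within-mouse differences of 0.29 to 1.18 on the log2 scale and a fitted change of 0.66 (SE 0.13). Fcgbp had 252, 298 and 87.3 CPM untreated and 337, 421, 210.1 and 325 CPM with VIP (0.70, SE 0.13). For both genes mouse 3 was the lowest sample in each group. Agr2 had 465, 395 and 688 CPM untreated and 764, 684, 1117 and 807 CPM with VIP (0.73, SE 0.08), with mouse 3 highest in each group. Rep15 changed by 0.59 (SE 0.15) and Spink4, the most abundant, changed least, by 0.30 (SE 0.09). Summed over members, the share of all UMIs was 0.549 to 0.682% in untreated and 0.785 to 0.938% in VIP-treated cultures.

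All 10 members were higher with VIP in each of 3 mice, which held for 20.9% of the 12727 genes tested, and 5 of 10 had groups that did not overlap, which held with VIP higher for 6.32% of genes. By an adjusted p of at most 0.05 in edgeR, 9 of 10 passed, all higher, where 4.82% of genes passed and 3.72% passed as higher, and without the mouse as a block 3 of 10 passed. Since this comparison chose the members, nothing is read from these counts. The median of the fitted member changes was 0.68 on the log2 scale, against −0.00407 over all genes tested. Summed Paneth cell markers were at 11966 to 21079.5 CPM untreated and 13153 to 20659.8 with VIP, and summed enterocyte markers at 13738 to 14347 and 10848 to 13743 CPM. Their part in the members' change was not tested.

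**Figure D2:**
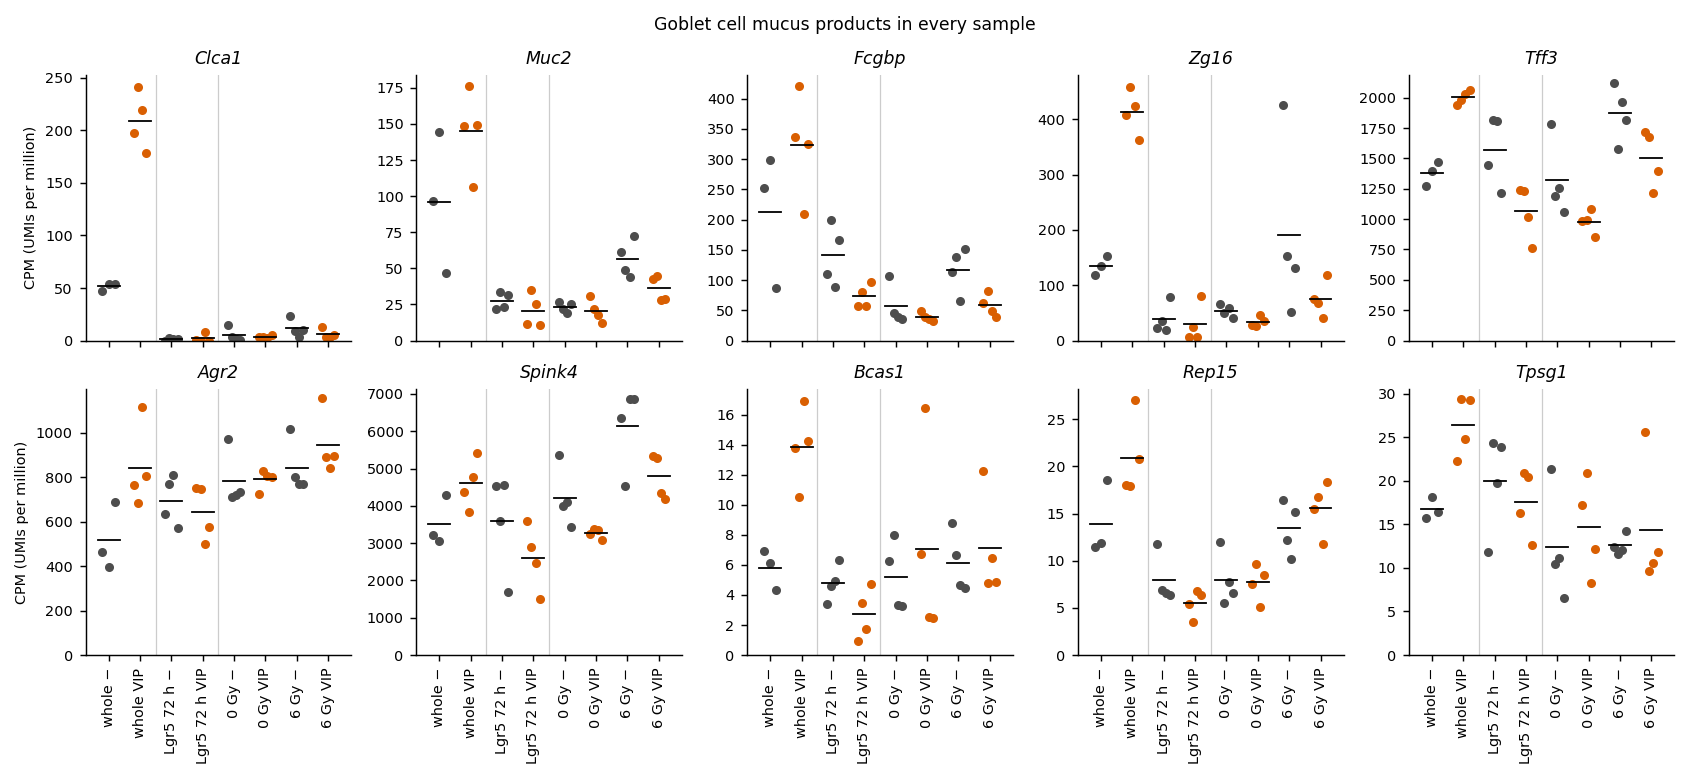
CPM of each member in every sample (points, mice in order from left to right) with the group mean (line), untreated in grey and VIP-treated in orange, for whole organoids, Lgr5 cells of the 72 h experiment and the 4 groups of the irradiation cohort. Clca1 and Zg16 in whole organoids show the widest gap between treated and untreated samples.

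In whole organoids the libraries of VIP-treated mouse 3 stood apart from each other. Most cultures had a first and a second technical library, and the untreated culture of mouse 3 had only a first. In 5 pairs the median absolute log2 ratio of the first to the second library over the members was 0.05 to 0.21, and in VIP-treated mouse 3 it was 1.03. Clca1 was at 325 CPM in the first library of that culture and 52.3 CPM in the second, where untreated libraries ranged from 40.2 to 60.9 CPM. Zg16 was at 594 and 155 CPM, Agr2 at 1482 and 539, and Rep15 at 37.6 and 10.2. The second library fell inside the range of the untreated libraries for 6 of 10 members and below all other VIP-treated libraries for 6 of 10. The first library was itself the highest VIP-treated library for Clca1, Zg16, Tff3, Agr2, Bcas1 and Rep15, and the lowest for Muc2 and Fcgbp.

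Muc2 and Fcgbp went the other way, with 89.1 and 181 CPM in the first library and 134 and 256 in the second. Without the second library all 10 members passed the threshold and Clca1 changed by 2.27 on the log2 scale. Without the first library instead, 0 members and 0 genes passed in edgeR (7 members and 720 genes at an unadjusted p under 0.05), the Clca1 change was 1.45, and the median of the within-mouse member changes was 0.52 rather than 0.70. All 10 fitted changes were still positive. Those of Rep15 and Agr2 were then 0.19 and 0.37 on the log2 scale.

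**Figure D3:**
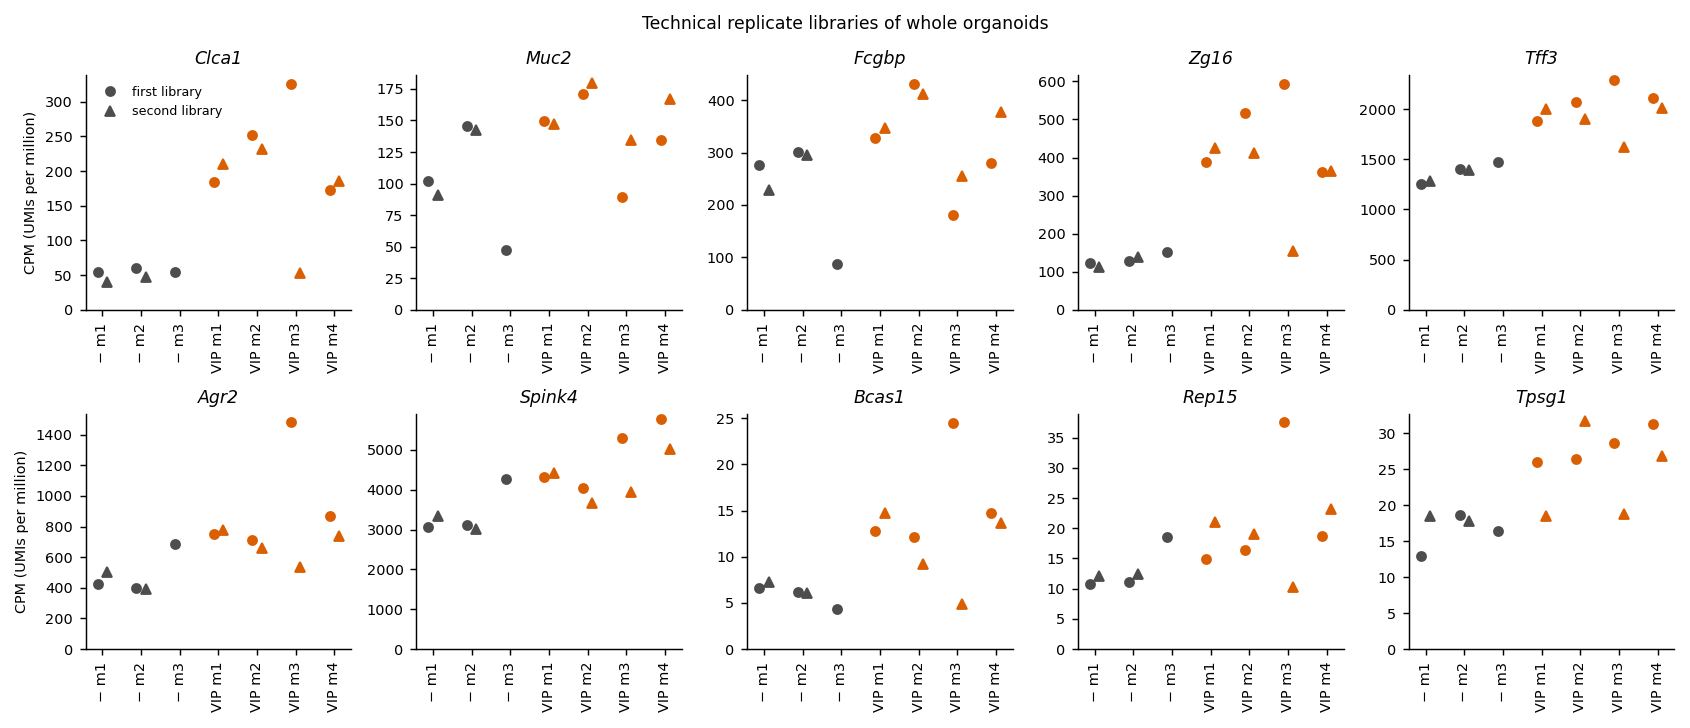
CPM of each member in the separate libraries of whole organoids (circles for first, triangles for second libraries, grey for untreated and orange for VIP-treated, m for mouse). In VIP-treated mouse 3 the Clca1 libraries are at 325 and 52.3 CPM, while the libraries of the other cultures lie close together.

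In sorted Lgr5 cells after 72 h of VIP, the members were lower or little changed. Fcgbp went from 109.7, 200.1, 88.8 and 167 CPM in untreated mice 1 to 4 to 57.1, 80.0, 57.9 and 96.6 CPM with VIP. It was lower in 4 of 4 mice, though the highest treated sample lay above the lowest untreated one, and the log2 fold change was −0.97 (SE 0.17). Tff3 went from 1446, 1818, 1808 and 1216 to 1243, 1231, 1018 and 762 CPM, lower in 4 of 4 mice (−0.60, SE 0.14), and Spink4 from 4531, 3605, 4562 and 1699 to 3580.2, 2899.7, 2461 and 1509 CPM, also lower in 4 of 4 (−0.46, SE 0.15). The mice differed from each other in Spink4 by more than VIP changed it, mouse 4 being lowest in both groups.

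Muc2 had 21.9, 33.5, 23.0 and 31.8 CPM untreated and 11.8, 34.8, 25.5 and 11.1 CPM with VIP, lower in mice 1 and 4 and about level in mice 2 and 3, with a log2 fold change of −0.49 (SE 0.32) and a 95% interval of −1.14 to 0.17. Zg16 had 21.9, 34.7, 19.7 and 77.9 CPM untreated and 6.34, 24.3, 6.81 and 80.8 CPM with VIP (−0.61, SE 0.30), with mouse 4 high in both groups. Agr2 (−0.15, SE 0.15) and Tpsg1 (−0.19, SE 0.34) had intervals that span 0, and their sign turned when mouse 3 (Agr2) or mouse 4 (Tpsg1) was left out, to 0.08 and 0.05. The remaining 3 members did not pass the filter on low counts. Clca1 had 0, 2, 1 and 1 UMIs untreated and 1, 0, 5 and 0 with VIP, Bcas1 2, 4, 3 and 4 untreated and 1, 2, 1 and 3 with VIP, and Rep15 7, 6, 4 and 4 untreated and 6, 2, 4 and 4 with VIP, so a change was not detectable at this depth.

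Of the 7 members that passed the filter, all were lower and 1 (Fcgbp) passed the threshold, where 0.0885% of 6778 genes did and 0.0295% did as lower. Fcgbp, Tff3 and Spink4, 3 of the 7, were lower in each of 4 mice, as 4.97% of genes were. This comparison also served to choose the members, so nothing is read from these counts. The median over these 7 was −0.49, and over all genes −0.00152, on the log2 scale. The members' summed share of UMIs was 0.380 to 0.734% untreated and 0.306 to 0.567% with VIP. Summed stem cell markers were 4218 to 5881 CPM untreated and 5478 to 7028 with VIP and summed Paneth cell markers 4858 to 14086 and 3901 to 10514 CPM, and their part in the members' lower level was not tested.

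Set beside each other, VIP moved Fcgbp by 0.70 (SE 0.13) in whole organoids and by −0.97 (SE 0.17) in Lgr5 cells, a difference of −1.67 (SE 0.22) with a 95% interval of −2.12 to −1.22. No mouse went against either direction. The difference was −2.22 (SE 0.30) for Zg16, −2.09 (SE 0.73) for Bcas1, −1.12 (SE 0.20) for Tff3, −1.13 (SE 0.34) for Muc2 and −0.77 (SE 0.21) for Spink4, and all 10 were negative. For Clca1 it was −1.55 (SE 1.03) with an interval of −3.69 to 0.58. The differences of Clca1, Bcas1 and Rep15 rest on the few UMIs given above in Lgr5 cells. These members did not pass the filter there and passed that of the joint fit by their counts in whole organoids. Their negative sign therefore says little about Lgr5 cells. In this comparison 3 of 10 members passed the threshold, all lower, where 0.147% of 10194 genes did. It served to choose the members, so nothing is read from this count. Fcgbp was −1.61 without the second and −1.75 without the first library of VIP-treated mouse 3.

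**Figure D4:**
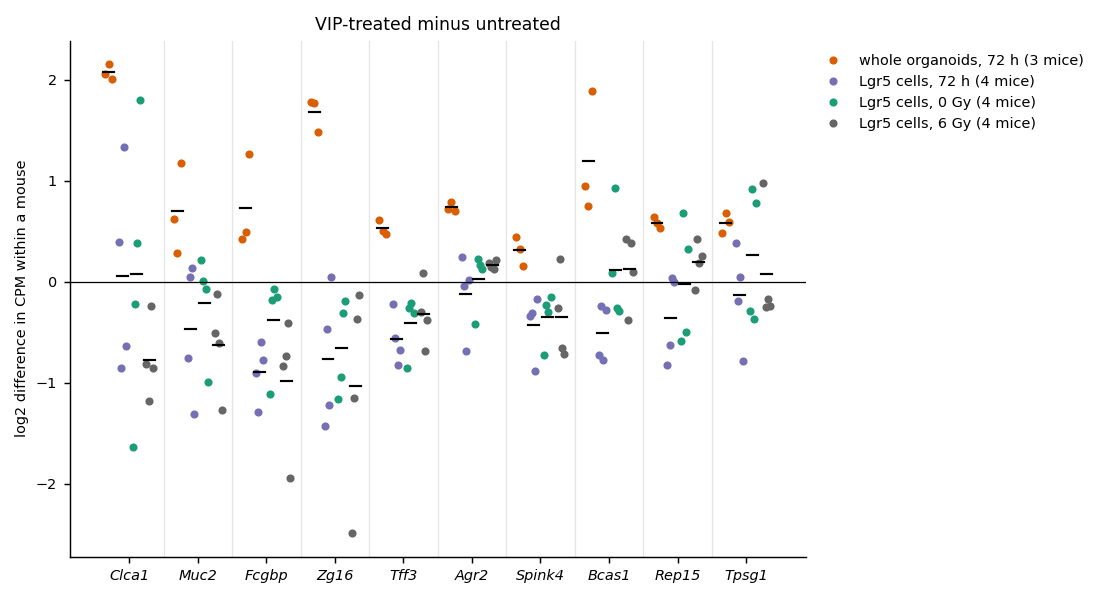
Log2 difference in CPM between the VIP-treated and untreated sample of each mouse (points) and their mean (line), for whole organoids, Lgr5 cells at 72 h and unirradiated and irradiated Lgr5 cells of the irradiation cohort. In whole organoids all points lie above 0, whereas for Fcgbp all points of the sorted cells lie below it.

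The irradiation cohort measured VIP in Lgr5 cells of 4 other mice, after 48 h instead of 72 h. Without irradiation Tff3 had 1784, 1188, 1256 and 1057 CPM in untreated mice 1 to 4 and 985, 992, 1084 and 851 CPM with VIP. It was lower in 4 of 4 mice, most in mouse 1, with a log2 fold change of −0.42 (SE 0.10) that just missed the threshold (edgeR adjusted p = 0.0511). Over the alternatives its adjusted p ranged from 1.40e-08 to 0.390. Spink4 had 5369.7, 3985, 4106 and 3429 CPM untreated and 3249, 3392, 3339.8 and 3083 CPM with VIP, and all treated samples lay below all untreated ones (−0.36, SE 0.11, edgeR adjusted p = 0.131).

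Fcgbp had 107, 45.0, 38.4 and 36.0 CPM untreated and 48.8, 39.5, 36.4 and 32.3 with VIP, lower in 4 of 4 mice but by much only in mouse 1, whose untreated sample was far above the others (−0.50, SE 0.25, edgeR adjusted p = 0.427). Zg16 had 65.3, 49.96, 58.4 and 41.3 CPM untreated and 28.5, 25.4, 46.7 and 35.9 CPM with VIP, likewise lower in each mouse (−0.64, SE 0.39, adjusted p by edgeR 0.563). Muc2 (−0.19, SE 0.22), Agr2 (0.02, SE 0.08), Rep15 (−0.06, SE 0.29), Tpsg1 (0.24, SE 0.28), Bcas1 (0.36, SE 0.40) and Clca1 (−0.29, SE 0.47) had 95% intervals that span 0. None of the 10 passed the threshold and 2 had an unadjusted p under 0.05, where 0.742% of 9976 genes passed. DESeq2 gave an adjusted p for 4 of the 10 and called 0, with 2 of the 10 at an unadjusted p under 0.05. Lower in every mouse were 4 of 10, against 9.88% of genes, and only Spink4 had groups that did not overlap, against 2.92% of genes for VIP lower.

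After 6 Gy, Fcgbp was the only member past the threshold for VIP, and it was lower. Irradiated untreated mice 1 to 4 had 114, 138, 65.1 and 151 CPM and irradiated VIP-treated mice 62.9, 82.3, 48.8 and 38.3 CPM. It was lower in 4 of 4 mice, although mouse 2 with VIP lay above untreated mouse 3, and the log2 fold change was −1.05 (SE 0.22, edgeR adjusted p = 0.0297). This call was lost without mouse 3 (edgeR adjusted p = 0.0969), without mouse 4 (0.470), without the mouse block (0.129), with at least 10 counts asked of every sample (0.0630) and in DESeq2 (adjusted p = 0.757), while the log2 change stayed between −0.73 and −1.20 over the alternatives.

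Zg16 had 426, 152, 52.1 and 131 CPM in irradiated untreated and 74.6, 67.9, 40.0 and 119 CPM in irradiated VIP-treated mice. Mouse 1 without VIP was far above the rest, and the change of −1.27 (SE 0.30) did not pass (edgeR adjusted p = 0.0815). Muc2 had 61.2, 48.8, 43.7 and 72.2 CPM untreated and 42.6, 44.8, 28.2 and 29.1 CPM with VIP, lower in each mouse (−0.66, SE 0.18, adjusted p by edgeR 0.164). Clca1, at 23.5, 8.87, 3.72 and 9.80 CPM untreated and 12.8, 3.20, 2.94 and 4.85 CPM with VIP, was lower in each mouse as well (−0.95, SE 0.37, adjusted p by edgeR 0.657). Tff3 (−0.34, SE 0.10) and Spink4 (−0.39, SE 0.11) were lower in 3 of 4 mice, whereas Agr2 was higher in each mouse by 0.13 to 0.22 on the log2 scale (0.15, SE 0.08, edgeR adjusted p = 0.923). Bcas1 (0.30, SE 0.39), Rep15 (0.18, SE 0.23) and Tpsg1 (0.23, SE 0.29) had positive changes with 95% intervals that span 0, so that 4 of the 10 fitted changes were positive and 6 negative. In all, 1 of 10 members passed, as lower, where 0.221% of genes passed and 0.0902% as lower. Clca1, Muc2, Fcgbp and Zg16 were lower in every mouse, as 5.65% of genes were, and Agr2 higher in every mouse, as 8.96% of genes were.

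Irradiation raised 5 of the 10 members in untreated Lgr5 cells. Muc2 went from 26.4, 21.6, 18.9 and 25.6 CPM at 0 Gy to 61.2, 48.8, 43.7 and 72.2 CPM after 6 Gy in mice 1 to 4. It rose in 4 of 4 mice by 1.13 to 1.45 on the log2 scale with groups that did not overlap, and its fitted change was 1.27 (SE 0.19, edgeR adjusted p = 1.15e-04). Zg16 rose from 65.3, 49.96, 58.4 and 41.3 to 426, 152, 52.1 and 131 CPM. It rose in mice 1, 2 and 4 and not in mouse 3, with a change of 1.71 (SE 0.31, edgeR adjusted p = 0.00124).

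Fcgbp rose from 107, 45.0, 38.4 and 36.0 to 114, 138, 65.1 and 151 CPM, little in mouse 1, which was high at 0 Gy already (1.08, SE 0.22, edgeR adjusted p = 0.00272). Tff3 rose from 1784, 1188, 1256 and 1057 to 2123, 1582, 1964 and 1819 CPM (0.53, SE 0.10, edgeR adjusted p = 0.00191). Spink4 rose from 5369.7, 3985, 4106 and 3429 to 6362, 4524, 6861 and 6857 CPM (0.57, SE 0.11, edgeR adjusted p = 0.00247). Both went up in each of the 4 mice, most in mouse 4.

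Clca1 had 14.4, 3.70, 1.67 and 0.655 CPM at 0 Gy and 23.5, 8.87, 3.72 and 9.80 CPM after 6 Gy, higher in each mouse, but it did not pass (1.22, SE 0.38, edgeR adjusted p = 0.0677), nor did Rep15 (0.75, SE 0.26, 0.112). Agr2 differed by only 0.11 (SE 0.08), with an interval of −0.06 to 0.27, Bcas1 by 0.21 (SE 0.41) and Tpsg1 by −0.0015 (SE 0.29) with an interval of −0.59 to 0.59. So 5 of 10 members passed, all higher, where 4.46% of genes passed and 2.87% as higher. Higher in every mouse were 7 of 10, against 10.5% of genes, and Muc2 alone had groups that did not overlap, against 4.47% of genes for 6 Gy higher. Leaving out mouse 4 left Muc2 and Zg16 as the 2 members that passed, and DESeq2 called 4, without Zg16 (adjusted p = 0.0504).

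With VIP present, 6 Gy raised Tff3, Spink4, Rep15 and Muc2. Tff3 went from 985, 992, 1084 and 851 CPM at 0 Gy to 1720.0, 1673, 1216 and 1393 CPM (0.60, SE 0.10, edgeR adjusted p = 3.58e-04), and Spink4 from 3249, 3392, 3339.8 and 3083 to 5325, 5288, 4348 and 4186 CPM (0.54, SE 0.11, edgeR adjusted p = 0.00266). Every irradiated sample lay above every unirradiated one for both. Rep15 went from 7.51, 9.70, 5.12 and 8.53 to 15.5, 16.8, 11.8 and 18.3 CPM, again with no overlap (0.996, SE 0.26, edgeR adjusted p = 0.0149). Muc2 went from 30.8, 21.6, 17.9 and 12.2 to 42.6, 44.8, 28.2 and 29.1 CPM (0.80, SE 0.21, edgeR adjusted p = 0.0149). The Muc2 call was lost without mouse 2 (0.0747) or mouse 3 (0.0566), and that of Rep15 without mouse 3 (0.0704) or mouse 4 (0.107) and in DESeq2 (0.111).

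Zg16 had 28.5, 25.4, 46.7 and 35.9 CPM at 0 Gy and 74.6, 67.9, 40.0 and 119 CPM after 6 Gy (1.08, SE 0.37, edgeR adjusted p = 0.0758), and Agr2 725, 830.5, 807 and 803 CPM at 0 Gy and 1159, 891, 841 and 896 CPM after 6 Gy, apart between the groups but by 0.23 (SE 0.08, edgeR adjusted p = 0.0746). Fcgbp was higher in 4 of 4 mice by 0.24 to 1.03 (0.52, SE 0.25, edgeR adjusted p = 0.223). In all 4 of 10 passed, each higher, where 7.78% of genes passed and 4.32% as higher. Higher in every mouse were 6 of 10, against 14.1% of genes, and 4 had groups that did not overlap, against 6.50% of genes for 6 Gy higher.

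**Figure D5:**
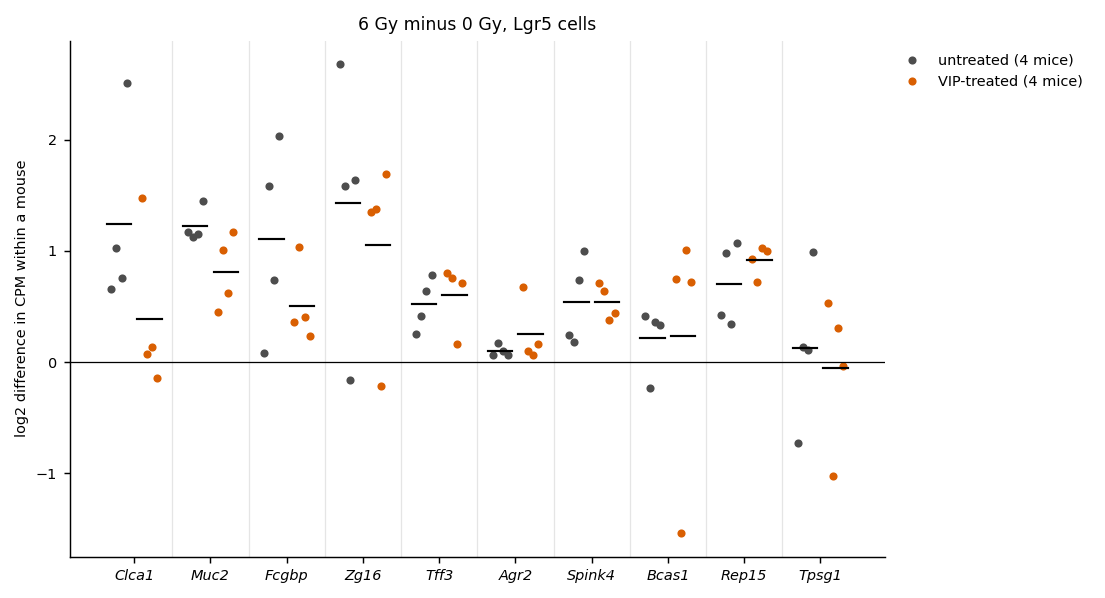
Log2 difference in CPM between the 6 Gy and the 0 Gy sample of each mouse (points) and their mean (line), in untreated (grey) and VIP-treated (orange) Lgr5 cells. Muc2 lies between 1.13 and 1.45 in untreated cells in all 4 mice, while the points of Tpsg1 lie on both sides of 0.

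Whether VIP changed the response to irradiation was tested as an interaction, which is the same for both ways of stating it. It was −0.56 (SE 0.33) for Fcgbp, with a 95% interval of −1.24 to 0.13, −0.47 (SE 0.29) for Muc2 (−1.06 to 0.12), −0.63 (SE 0.50) for Zg16 (−1.65 to 0.40) and 0.07 (SE 0.14) for Tff3 (−0.22 to 0.37). None of the 10 members passed in edgeR, none had an unadjusted p under 0.05, and DESeq2 called 0 as well. Over all genes edgeR called 0 of 9976, a share of 0%, with 634 at an unadjusted p under 0.05, and DESeq2 called 3. The intervals of Fcgbp, Muc2 and Zg16 reach below −1. The 4 comparisons of the irradiation cohort share samples, since the untreated 0 Gy samples serve both the VIP and the irradiation comparison.

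The members' summed share of UMIs was 0.534 to 0.838% in untreated and 0.485 to 0.535% in VIP-treated cells at 0 Gy, and 0.729 to 1.02% and 0.655 to 0.845% after 6 Gy. Summed Paneth cell markers, with 8 of 8 above 0, were 9911 to 14700.3 CPM untreated and 8419 to 9759.8 with VIP at 0 Gy, and 14804 to 27260.2 and 14689.9 to 16844 after 6 Gy. Summed enteroendocrine markers, with 8 of 8 above 0, were 2118 to 2930.5, 1487 to 3406, 3735 to 5689 and 3923 to 5973 CPM in the same order. Summed stem cell markers were 3499 to 4555, 5395 to 5880.2, 2549.7 to 2881 and 3167 to 3791 CPM. Summed enterocyte markers were 1004 to 1412, 668 to 948, 1279 to 2857 and 944 to 1039 CPM, and at both doses the VIP-treated samples lay below the untreated ones. For stem cell markers the VIP-treated samples lay above the untreated ones at both doses. For Paneth cell markers they lay below at 0 Gy and overlapped after 6 Gy, and enteroendocrine markers overlapped at both doses. The part of these cell types in the members' values was not tested.

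Around the members, other genes of goblet cells were counted from lists written with earlier results of these data known. Among 36 tested companions, genes known from goblet cells, 30 had a positive and 6 a negative change with VIP in whole organoids, and 11 passed the threshold as higher and 1 as lower, where 3.72% of all genes passed as higher, with a median log2 change of 0.26 against −0.00407 over all genes. S100a6, a calcium-binding protein, changed by 2.62 (SE 0.11), Guca2a, which encodes guanylin, by 0.69 (SE 0.09) and Bace2, a membrane protease, by 1.17 (SE 0.19), while Dmbt1, a secreted scavenger receptor protein, changed by −0.59 (SE 0.11). In untreated Lgr5 cells 6 Gy raised Guca2a (0.58, SE 0.12, edgeR adjusted p = 0.00323) and lowered Dmbt1 (−1.34, SE 0.23, edgeR adjusted p = 7.70e-04), with 4 of 31 companions past the threshold as higher and 1 as lower (20 positive and 11 negative changes), where 2.87% of all genes passed as higher and 4.46% in all. S100a6 rose too (0.67, SE 0.09, edgeR adjusted p = 4.40e-05), as did the keratin Krt18 (0.34, SE 0.06, edgeR adjusted p = 6.10e-04). In VIP-treated cells 4 rose and 2 fell, where 7.78% of all genes passed, Txndc5 and Galnt12 being the latter and Guca2a again among the former (0.60, SE 0.12, edgeR adjusted p = 0.00218). VIP lowered 1 companion at 0 Gy, Dmbt1 (−0.96, SE 0.22, edgeR adjusted p = 0.0337), and raised 1 after 6 Gy, S100a6 (0.56, SE 0.09, edgeR adjusted p = 0.00320). Of all genes, 0.742% passed for VIP at 0 Gy and 0.221% after 6 Gy.

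Enzymes that attach or extend mucin sugars were counted next. In whole organoids 26 of 30 had a positive change with VIP and 4 a negative one, and 5 passed as higher and 0 as lower, where 3.72% of all genes passed as higher. Among the 5 were Fut2, which adds fucose (1.64, SE 0.26), Gcnt3, which branches mucin glycans (0.62, SE 0.10), and Galnt3, which starts them (0.46, SE 0.10). In Lgr5 cells at 72 h 0 of 23 passed in edgeR (2 at an unadjusted p under 0.05), where 0.0885% of all genes passed. S100a6 of the companions had changed by 1.68 (SE 0.16) there. In the irradiation cohort VIP lowered the sialyltransferase St3gal4 at 0 Gy (−1.27, SE 0.24, edgeR adjusted p = 0.00746), 1 of 26, and none passed for 6 Gy in untreated cells (4 at an unadjusted p under 0.05), where Galnt11 had the smallest p (0.79, SE 0.29, edgeR adjusted p = 0.131). In VIP-treated cells 6 Gy raised Galnt3 (0.58, SE 0.16, edgeR adjusted p = 0.0251) and lowered Galnt12 (−0.35, SE 0.10, edgeR adjusted p = 0.0403). Of all genes, 0.742% passed for VIP at 0 Gy, 4.46% for 6 Gy without VIP and 7.78% for 6 Gy with VIP.

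Transcription factors that govern goblet cells and their relatives were counted in the same way. In whole organoids 11 of 15 had a positive change with VIP and 4 a negative one, and 3 passed as higher, where 3.72% of all genes did, Creb3l1, a membrane-bound factor of secretory cells (0.64, SE 0.10), Klf4 (0.89, SE 0.15) and Atoh1, which commits cells to the secretory lineage (0.50, SE 0.12). In unirradiated Lgr5 cells, where no member passed, VIP raised Creb3l1 (0.61, SE 0.14, edgeR adjusted p = 0.0302) and Foxa3 (0.32, SE 0.07, edgeR adjusted p = 0.0406), 2 of 14, where 0.742% of all genes passed. After 6 Gy in untreated cells, where 5 members rose, 0 of 14 passed in edgeR (4 at an unadjusted p under 0.05), and 11 of 14 had a negative change with a median of −0.16. In VIP-treated cells 6 Gy lowered Foxa3 (−0.36, SE 0.07, edgeR adjusted p = 0.00284), Elf3 (−0.31, SE 0.08, edgeR adjusted p = 0.0132) and Creb3l1 (−0.49, SE 0.14, edgeR adjusted p = 0.0238), and raised the endocrine factor Nkx2-2 (1.24, SE 0.29, edgeR adjusted p = 0.00635). Of all genes, 4.46% passed for 6 Gy in untreated and 7.78% in VIP-treated cells.

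Of 37 genes of protein folding and transport in the endoplasmic reticulum, 23 had a positive and 14 a negative change with VIP in whole organoids, and 2 passed as higher, where 3.72% of all genes did, the disulfide reductase Dnajc10 (0.54, SE 0.11) and the oxidase Ero1l (0.65, SE 0.13). In edgeR 0 of 33 passed for VIP at 72 h, with 4 at an unadjusted p under 0.05. In the irradiation cohort 0 of 35 passed for VIP at 0 Gy and after 6 Gy, with 3 and 0 at such a p. For 6 Gy in untreated cells 0 of 35 passed, with 7 at such a p. In VIP-treated cells 1 of 35 passed, the prolyl isomerase Fkbp2, which fell with 6 Gy (−0.26, SE 0.07, edgeR adjusted p = 0.0183). Of all genes, 0.0885% passed for VIP at 72 h, 0.742% at 0 Gy and 0.221% after 6 Gy. For 6 Gy the share was 4.46% without and 7.78% with VIP.

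Paralogs of the members had their own values. Tff1, a trefoil peptide best known from the stomach, changed by 3.04 (SE 0.15) with VIP in whole organoids, and Clca4a by 2.77 (SE 0.27), where Tff3 and Clca1 changed by 0.52 (SE 0.09) and 2.08 (SE 0.10), while Spink1 changed by −0.54 (SE 0.11) and Spink4 by 0.30 (SE 0.09). Tff1 had 26 to 557 UMIs per sample in whole organoids but at most 2 in the irradiation cohort and 0 in Lgr5 cells at 72 h. Clca3b, at 274.5 to 588.2 CPM in the irradiation cohort, fell with 6 Gy in untreated cells (−0.84, SE 0.10, edgeR adjusted p = 1.05e-05) and in VIP-treated cells (−0.55, SE 0.10, edgeR adjusted p = 5.75e-04), where the fitted changes of Clca1 were positive. Spink1 rose with 6 Gy in untreated cells as Spink4 did (0.97, SE 0.22, edgeR adjusted p = 0.00951). In VIP-treated cells 6 Gy raised Agr3 (0.65, SE 0.16, edgeR adjusted p = 0.0122) and 9530053A07Rik, a relative of Fcgbp with 1 to 22 UMIs per sample (2.18, SE 0.48, edgeR adjusted p = 0.00464). Of the mucins of the stomach, Muc6 had at most 15 UMIs in a sample and Muc5ac at most 1, and the mast cell tryptases Tpsb2 and Tpsab1 had at most 1 and 0. Clca3a1 reached 82 and Clca3a2 206 UMIs, and Clca4b 167.6 to 284.2 CPM in whole organoids. Reads shared among near-identical Clca genes may be split between them.

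Over all 3 experiments, Guca2a varied most like the members. Likeness was the smallest of 3 Pearson correlations, each between a gene's log2 CPM and the mean standardised level of the members, over 7 samples of whole organoids, 8 of Lgr5 cells at 72 h and 16 of the irradiation cohort. At 72 h the 7 members that passed the filter on low counts made up that level, and all 10 elsewhere. Guca2a had 0.869, 0.943 and 0.928 in these, followed among 6723 genes by Tnfrsf12a, the receptor of the cytokine TWEAK, with a smallest value of 0.723, Strn4 with 0.640, Ufm1 with 0.604 and the nuclear long non-coding RNA Neat1 with 0.601. Treatment, depth and library preparation are shared by the genes of a sample, so these values describe likeness and carry no p.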

How the data were processed

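Jejunal mouse organoids were sequenced in 37 libraries as 3′ tagged RNA with unique molecular identifiers. The authors aligned the reads with the Drop-seq pipeline (version 1.0) to GRCm38 with GENCODE M25 and deposited UMI counts per gene in 3 tables, 1 per experiment. Gene positions come from GENCODE M21, in which 30523 of 31533 symbols were matched.

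The technical libraries of a culture were summed. Each table was fitted with edgeR 4.0.16 (quasi-likelihood test, TMM scaling, factors 0.932 to 1.053, filterByExpr by group, mouse as block, R 4.3.3), in the irradiation cohort over all 16 samples, and p-values were adjusted over all genes tested by Benjamini and Hochberg at 0.05. All p-values are two-sided. The difference in VIP change between whole organoids and Lgr5 cells used 1 fit over both tables. SEs are the fold change over the root of F. Within-mouse differences are of log2 CPM with a prior count of 2. Only the edgeR fit was tested on simulated data, and only for part of the comparisons. Alternatives were DESeq2 1.42.0 (Wald test), other scalings, filters, samples and libraries, no block, and each mouse left out.

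Pairing rests on the labels, where samples of a number come from the same mouse. Deviations of same-mouse samples correlated at 0.28 to 0.66 in whole organoids, 0.03 to 0.21 in Lgr5 cells at 72 h and −0.07 to 0.16 in the irradiation cohort. Those of different mice correlated at −0.57 to 0.36, −0.14 to 0.15 and −0.20 to 0.20 in the same order. In the irradiation cohort the same-mouse range thus lay inside that of different mice.

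Members, lists and tests were chosen with earlier results of these data known. All 10 members were named, and from each other list those past the threshold with the smallest p, up to 3 a direction, or the 2 nearest to it. Intervals on pooled counts cover counting error only. With 3 or 4 mice a group, low counts such as those of Clca1 in sorted cells set the precision. Columns without a sample numbered 0.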

Additional observations from a re-analysis of the deposited data

Results flagged for a closer look

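In groups of 4 samples, a member's highest or lowest sample was compared with the rest by the ratio of its gap to the group's range (against Dixon's critical value for 4 samples), and 6 of 70 groups had a sample far from the others. The groups share samples and some hold few UMIs, so this count cannot be set against a rate by chance. Clca1 stood at 8.51 CPM in VIP-treated mouse 3 of the Lgr5 cells at 72 h, where the other mice had 0 to 0.906 CPM. Rep15 stood at 11.8 CPM in untreated mouse 1 of that experiment, with 6.36 to 6.94 in the others. The other 4 all came from mouse 1 of the irradiation cohort. Fcgbp was at 107 CPM in its untreated sample at 0 Gy (36.0 to 45.0 in the others), Agr2 at 971 CPM in the same sample (712 to 735) and at 1018 CPM in its untreated sample after 6 Gy (771 to 803), and Tpsg1 at 25.6 CPM in its VIP-treated sample after 6 Gy (9.59 to 11.9).

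For 4 members every mouse was higher with VIP in whole organoids and every mouse lower in Lgr5 cells at 72 h, although Bcas1 did not pass the filter on low counts in the latter and was lower there by only 1 or 2 UMIs a mouse. The VIP change in Lgr5 cells minus that in whole organoids was −1.67 on the log2 scale for Fcgbp (SE 0.22), −1.12 for Tff3 (SE 0.20), −0.77 for Spink4 (SE 0.21) and −2.09 for Bcas1 (SE 0.73). The members were chosen by these differences, which are therefore a description, and nothing is read from calls among them.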

How the results depend on the processing

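Depth limits the low members in sorted cells, where Clca1 had 0 to 5 UMIs a sample at 72 h, and 3 or 4 mice limit every count of calls. The median over members of the mean within-mouse change, not of the fitted change, is given here. In whole organoids it was 0.70 on the log2 scale, 0.62 to 0.75 with 1 mouse left out and 0.52 without the first library of VIP-treated mouse 3 (an alternative added after the data were seen). In Lgr5 cells at 72 h it was −0.49, with the members that did not pass the filter on low counts included, and −0.58 to −0.44 with 1 mouse left out. The Fcgbp difference between the experiments was −1.67, and −1.84 to −1.50 with 1 mouse left out.

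Members called for VIP at 0 Gy numbered 0 in edgeR, 1 with library size as the only scaling, 3 with no filter on low counts, 3 with only the groups compared in the fit and 0 with any mouse left out. For VIP after 6 Gy they numbered 1, but 0 in DESeq2 (5 at an unadjusted p under 0.05), 0 with at least 10 counts in every sample, 0 without the replicate block, 5 with no filter, 2 with only the groups compared and 0 to 3 with 1 mouse left out (0 without mouse 3, 3 without mouse 2). For 6 Gy they numbered 5 in untreated cells, and 2 to 5 with 1 mouse left out, and 4 in VIP-treated cells, 7 with no filter, 7 with only the groups compared and 3 to 5 with 1 mouse left out. The interaction gave 0 members under every setting run, in edgeR and DESeq2. Before adjustment, the main edgeR fit had 0 members with p under 0.05. The edgeR fit with no filter on low counts had 2 such members, and that without mouse 1 had 1. In whole organoids the fit without the replicate block called 3 of 10 members and 99 genes, against 9 and 614 with it, in a comparison that chose the members. Over all genes, edgeR and DESeq2 calls ranged over the settings from 0 to 1668 for VIP in whole organoids, 1 to 17 in Lgr5 cells at 72 h, 32 to 184 and 5 to 110 at 0 and 6 Gy, and 176 to 643 and 426 to 872 for 6 Gy without and with VIP. For single members, 440 of the tested values kept direction and call, 24 gained a call, 15 lost one and 32 changed sign with no call. The cause was not tested. The median with at least 10 counts in every sample could not be computed over all 10 members.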
